A study of Mus musculus with 6 samples.

Results

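The kinases of the Hippo pathway and the angiomotins were described in heart ventricles after deletion of the transcription factor gene Tead1 in heart muscle cells. The members were 10 genes taken by name: the kinases Stk3, Stk4, Lats1 and Lats2, the scaffold Sav1, the membrane proteins Nf2 and Wwc1, and the angiomotins Amot, Amotl1 and Amotl2. They were read by 13 probes, out of 20145 named genes and 55681 probes on the array. The Tead1 icKO group was 3 mice with floxed Tead1 and the Myh6-CreER transgene, in which a heart muscle promoter drives a Cre recombinase that tamoxifen switches on, and they had received tamoxifen. The 3 control mice carried the Tead1 flox allele and had received tamoxifen too. No Cre is named for the controls, so that carrying the recombinase and losing Tead1 cannot be told apart. All 6 animals were male, on the C57bl/6j background and 11 to 12 weeks old, and RNA of each ventricle sample was hybridised by itself.

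The Hippo pathway is a kinase cascade that keeps the coactivators YAP and TAZ out of the nucleus. The MST kinases, encoded by Stk4 and Stk3, bind the scaffold SAV1 and phosphorylate the LATS kinases, and LATS1 and LATS2 phosphorylate YAP and TAZ, which are then held in the cytoplasm or degraded. In the nucleus YAP and TAZ have no DNA-binding domain of their own and act through TEAD factors such as TEAD1. Angiomotins are scaffolds at cell junctions and actin filaments that bind YAP directly and also promote LATS activity. In the mouse heart, the cascade limits the division of heart muscle cells, and several of its own genes, among them Lats2 and Amotl2, are known targets of YAP with TEAD in cultured cells.

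Values are log2 processed signals minus the 75th percentile of the same array, so 0 is a probe as bright as that percentile, and a difference of 1 is a doubling. A level of one probe is not set against that of another. The 75th percentile signal was between 292 and 348 on the Tead1 icKO arrays and between 189 and 233 on the control arrays, the share of probes well above background ran from 47.7% to 50.8%, and all arrays lay on 1 slide. Of 22168 features tested with limma, 44.9% passed an adjusted p of 0.05, 16.1% as higher and 28.8% as lower in Tead1 icKO hearts. The features were named genes and single unnamed probes. Of the 12920 named genes, 2632 were higher and 3608 lower, with a median of -0.07. The median feature differed by -0.14. That median moved to 0.02 with scaling to the array median and to 0.30 with scaling to bright spike-in probes, and the share of calls that were higher moved to 54.6% and 81% under these scalings, against 35.8% with the 75th percentile.

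The brightest of 3 Tead1 probes, A_51_P214423, read 3.66, 3.44 and 3.46 in Tead1 icKO hearts, against 4.01, 3.79 and 3.96 in control hearts. All 3 Tead1 icKO values lay below all 3 control values. The difference was -0.40 ± 0.11 (SE, limma adjusted p = 0.0298), and the other probes differed by -0.43 (adjusted p = 0.0201 over probes) and -0.19 (adjusted p = 0.25). Scaling to the median gave -0.24 without a call (adjusted p = 0.185), and bright spike-in scaling turned the sign (0.04). The call was also lost without icKO 2, icKO 3, control 1 or control 3 (adjusted p up to 0.0899). The position of these probes relative to the floxed part is unknown, so they are no check of the deletion, and RNA of cells without Cre is in the bulk sample too.

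Markers of several cell types also moved between the groups, counted here with the 75th percentile scaling. The counts stand beside 16.1% of all features called higher and 28.8% called lower. Of 9 cardiomyocyte markers 8 were lower in Tead1 icKO hearts, with a summed level, in multiples of the 75th percentile signal, of 5651 to 6240 in Tead1 icKO and 8723 to 10659 in control hearts. Of 7 fibroblast markers 6 were higher, with sums of 581 to 753 in Tead1 icKO and 243 to 394 in control hearts. Of 5 macrophage markers tested 4 were higher, with sums of 51.5 to 67.6 in Tead1 icKO hearts against 24.9 to 33.0 in control hearts, while 3 of 7 endothelial markers were lower (35.0 to 39.6 in Tead1 icKO hearts against 41.3 to 49.3 in control hearts). All 9 cardiomyocyte, 7 fibroblast and 7 endothelial markers and the 5 macrophage markers tested were above background on all 6 arrays, so no such list was at 0. In bulk ventricle, fewer cells of a type and less RNA per cell cannot be told apart, and the part that cell composition plays in the results below was not tested.

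**Figure D1:**
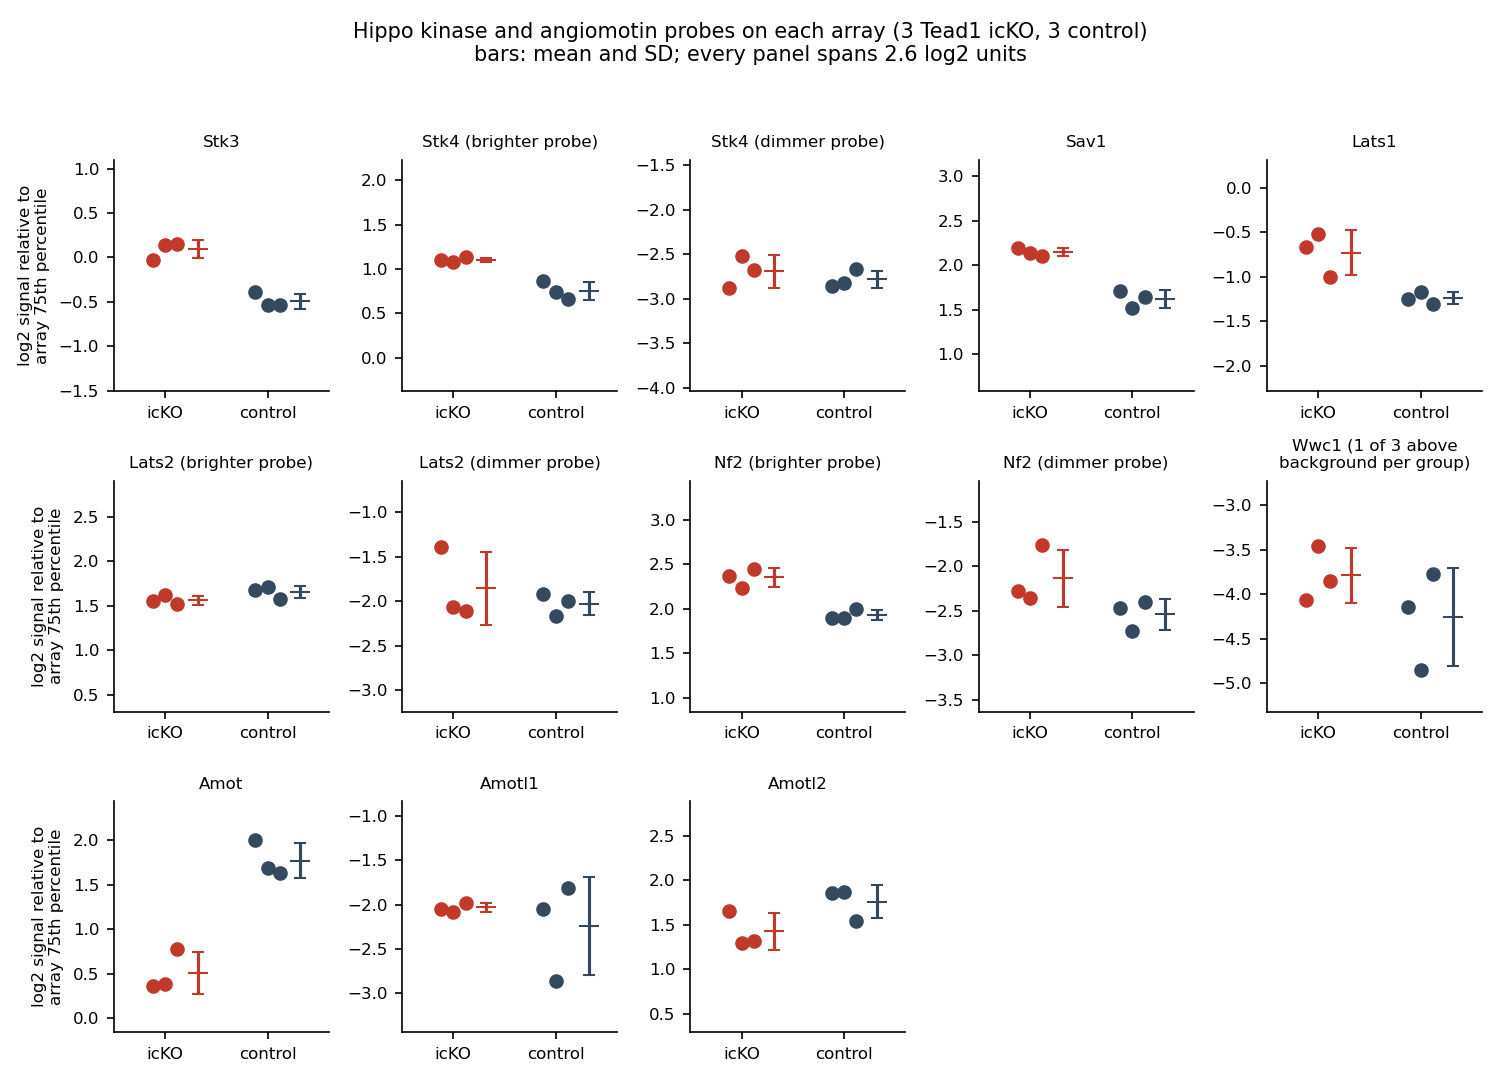
Log2 signal relative to the 75th percentile of the array (y axis) for the 13 member probes, a point per array, with mean and SD, for 3 Tead1 icKO (red, left) and 3 control arrays (dark blue, right); each panel spans the same log2 range around its own mean. The Tead1 icKO points of Stk3, Sav1, Lats1, the brighter Stk4 probe and both Nf2 probes all lie above the control points, those of Amot all lie below them, and the groups overlap for both Lats2 probes, the dimmer Stk4 probe, Wwc1, Amotl1 and Amotl2.

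Most of the core kinases, their scaffold and merlin were higher in Tead1 icKO hearts, while 1 angiomotin was lower. Of the 9 members tested, 5 were called higher (55.6%), beside 16.1% of all features, and 1 was called lower (11.1%), beside 28.8% of all features. Among the 12920 named genes tested, 2632 were higher and 3608 lower. The 5 were Stk3, Stk4, Sav1, Lats1 and Nf2, with differences between 0.35 and 0.58, and the 1 was Amot, at -1.26. Lats2, Amotl1 and Amotl2 were not called, and Wwc1 could not be tested. The median of the 9 was 0.35, beside -0.14 for all features and -0.07 for named genes. All 9 were well above background on all 6 arrays. The groups did not overlap for 6 of the 9, beside 59.3% of all features: 5 were higher, beside 21.6% of all features, and 1 lower, beside 37.7%. Without control 2 the number called higher was 2, and without icKO 2, icKO 3 or control 3 it was 3. The share of all features called in either direction was also smaller, at 35.2% without control 2 and 33.9% to 36.7% without the others, against 44.9%.

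The 2 MST kinases start the core of the cascade. Stk3, which encodes MST2, was read by 1 probe, A_55_P2045886, at -0.03, 0.14 and 0.15 in Tead1 icKO hearts, against -0.39, -0.54 and -0.54 in control hearts. Every Tead1 icKO value was above every control value, with a gap wider than the range within either group. The means were 0.09 ± 0.10 in Tead1 icKO and -0.49 ± 0.09 in control hearts (SD, n = 3 each). Stk3 thus rose by 0.58 ± 0.10 (SE, limma adjusted p = 0.00552), a fold of 1.50, and 86.6% of features had a lower difference.

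Stk4, which encodes MST1, had 2 probes that gave different results. The brighter, A_52_P606774, read 1.1, 1.08 and 1.13 in Tead1 icKO hearts, against 0.86, 0.74 and 0.66 in control hearts. The Tead1 icKO values lay close together, above all control values. The difference was 0.35 ± 0.09 (SE, limma adjusted p = 0.0256), a fold of 1.27 and the smallest of the 5 members called higher. The dimmer probe, A_52_P474636, read -2.88, -2.52 and -2.68 in Tead1 icKO hearts, against -2.86, -2.82 and -2.67 in control hearts. Its groups overlapped and differed by 0.09 ± 0.13 (SE, limma adjusted p = 0.581 over the 26012 probes kept, of which 44.4% were called). With the mean of both probes, Stk4 differed by 0.22 (adjusted p = 0.0944), and its call was also lost when slide row was blocked (adjusted p = 0.0521), and without icKO 2, icKO 3, control 2 or control 3 (adjusted p up to 0.0876).

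Sav1 encodes the scaffold that binds both MST kinases and holds them to LATS. Its probe, A_55_P2082529, read 2.20, 2.14 and 2.11 in Tead1 icKO hearts, against 1.71, 1.52 and 1.64 in control hearts. The groups were well separated, and the Tead1 icKO values were the tighter. Sav1 averaged 2.15 ± 0.04 in Tead1 icKO and 1.62 ± 0.10 in control hearts (SD, n = 3 each) and rose by 0.53 ± 0.10 (SE, limma adjusted p = 0.00629), a fold of 1.44. Stk3 and Sav1 were called higher under all 19 alternative settings tried, with differences of 0.50 to 1.02 for Stk3 and 0.47 to 0.97 for Sav1.

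The promoter of Sav1 is shown because this gene rose and its window holds the hexamer CATTCC, the reverse complement of GGAATG, the sequence that TEAD factors bind. RefSeq promoter windows of GRCm38.p6, 250 bases before to 50 after an annotated start, were searched on both strands for GGAATG. The hexamer was in 4817 of 32851 windows of all genes (14.7%) and in 3 of the 11 windows of 9 members, which were those of Sav1, Amotl2 and 1 of the pair of Lats2 starts. Stk3 had no window in this set and was not searched. A match describes these letters and does not show that a factor binds there. The 250 bases before the Sav1 start (chr12:69987003-69987252, minus strand) read, 5′ to 3′ with the hexamer in capitals:
Sav1: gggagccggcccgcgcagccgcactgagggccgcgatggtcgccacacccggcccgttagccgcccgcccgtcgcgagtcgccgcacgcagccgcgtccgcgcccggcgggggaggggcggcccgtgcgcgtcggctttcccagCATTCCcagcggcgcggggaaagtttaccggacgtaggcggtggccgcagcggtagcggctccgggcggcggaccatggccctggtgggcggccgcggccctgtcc
The window was rich in C and G (78.3%) and held 50 CpG dinucleotides, and the first base of the hexamer lay at -106 from the start.

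The LATS kinases stand at the end of the core, and 1 of the 2 was called. Lats1, by its single probe A_52_P642801, read -0.66, -0.52 and -1.0 in Tead1 icKO hearts, against -1.25, -1.17 and -1.30 in control hearts. The Tead1 icKO values were all higher, but spread more, and icKO 3 came near the controls. Means were -0.73 ± 0.25 in Tead1 icKO and -1.24 ± 0.07 in control hearts (SD, n = 3 each). Lats1 rose by 0.51 ± 0.14 (SE, limma adjusted p = 0.0288), a fold of 1.43. That call was lost without icKO 1, icKO 2 or any 1 of the controls (adjusted p up to 0.0854) and when dim probes were kept in (adjusted p = 0.107), and the difference was 0.31 with normexp background correction and 0.95 with bright spike-in scaling.

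Lats2, the other LATS kinase, was not called by either of its probes. The brighter probe, A_52_P315345, read 1.55, 1.62 and 1.52 in Tead1 icKO hearts, against 1.68, 1.71 and 1.58 in control hearts. The groups overlapped, with small spreads of 0.05 in Tead1 icKO and 0.07 in control hearts (SD, n = 3 each), and the 95% interval of the difference ran from -0.31 to 0.12 around -0.09 (limma adjusted p = 0.428). The sign of that small difference turned with median scaling (0.06) and with bright spike-in scaling (0.35, adjusted p = 0.123). The dimmer probe, A_55_P2002351, which carries another transcript accession, read -1.39, -2.07 and -2.11 in Tead1 icKO hearts, against -1.92, -2.17 and -2.0 in control hearts. The value of icKO 1 was high and the rest overlapped the controls, with a difference of 0.17 ± 0.21 (SE, adjusted p = 0.533 over probes). The Lats2 window with the hexamer is on the minus strand of chromosome 14, and its GGAATG starts at base 5 after the start (chr14:57746102-57746131):
Lats2: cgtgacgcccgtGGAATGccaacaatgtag

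Nf2 and Wwc1 encode merlin and KIBRA, membrane-associated proteins that bring LATS and the core kinases together below the cell membrane. The brighter Nf2 probe, A_55_P2423646, read 2.37, 2.24 and 2.45 in Tead1 icKO hearts, against 1.90, 1.90 and 2.0 in control hearts. All Tead1 icKO values were above all control values. Nf2 averaged 2.35 ± 0.11 in Tead1 icKO and 1.93 ± 0.06 in control hearts (SD, n = 3 each) and rose by 0.42 ± 0.10 (SE, limma adjusted p = 0.0152), a fold of 1.34. The dimmer probe, A_52_P555913, read -2.28, -2.36 and -1.76 in Tead1 icKO hearts, against -2.47, -2.73 and -2.40 in control hearts. Here too the groups did not overlap, and the difference of 0.40 ± 0.19 was of similar size with a larger error (SE, adjusted p = 0.125 over probes). The call of the brighter probe was lost without icKO 3 (adjusted p = 0.0532) or control 2 (adjusted p = 0.0508) and when dim probes were kept in (adjusted p = 0.0793), and the difference was 0.86 with bright spike-in scaling.

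The Wwc1 probe, A_55_P2133165, was well above background on 1 of 3 Tead1 icKO and 1 of 3 control arrays. It read -4.06, -3.46 and -3.85 in Tead1 icKO hearts, against -4.14, -4.85 and -3.77 in control hearts. The groups overlapped, and no difference was tested at this signal.

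Of the 3 angiomotins tested 1 was lower (33.3%), beside 28.8% of all features, and 0 were higher, with a median difference of -0.33. Amot, the founding member, which binds YAP and can hold it at junctions and actin, changed most of all members. Its probe, A_55_P2046509, read 0.36, 0.39 and 0.78 in Tead1 icKO hearts, against 2.0, 1.69 and 1.63 in control hearts. The highest Tead1 icKO value was still well below the lowest control value. Amot averaged 0.51 ± 0.24 in Tead1 icKO and 1.77 ± 0.20 in control hearts (SD, n = 3 each), a difference of -1.26 ± 0.16 (SE, 95% interval -1.65 to -0.87, limma adjusted p = 0.00189). The level was 2.40-fold higher in control hearts, and 4.94% of features had a lower difference.

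Amot was also lower before any scaling between arrays, although the Tead1 icKO arrays were the brighter. Its processed signal was 401, 455 and 502 in Tead1 icKO hearts, against 754, 749 and 667 in control hearts. The fall kept its direction and call under all 19 alternative settings, at -1.40 to -0.82. Within slide row 1 it was -1.42, within row 2 -1.12 and within column 2, which held 1 array of each group, -1.27. Since the groups did not overlap, the direction within a row or column was fixed, and only the size can be read.

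The promoter of Amot is shown because this gene fell most; its window held neither GGAATG nor CATTCC, which says only that these letters are not in it. The 250 bases before its start (chrX:145487640-145487889, minus strand) read, 5′ to 3′:
Amot: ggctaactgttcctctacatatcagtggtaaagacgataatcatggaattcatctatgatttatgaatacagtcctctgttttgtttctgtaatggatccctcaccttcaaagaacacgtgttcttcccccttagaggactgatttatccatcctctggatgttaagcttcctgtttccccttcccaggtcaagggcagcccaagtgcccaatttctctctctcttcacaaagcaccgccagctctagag
The window had 46.0% C and G and 7 CpG dinucleotides, both lower than in the Sav1 window.

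Amotl1, a paralog of Amot that also binds YAP at junctions, had the widest spread of the 9 members tested. Its probe, A_55_P2244112, read -2.05, -2.08 and -1.98 in Tead1 icKO hearts, against -2.05, -2.86 and -1.81 in control hearts. The Tead1 icKO values lay close together, and control 2 stood below all other arrays. The difference was 0.21 ± 0.27 (SE, 95% interval -0.44 to 0.85, limma adjusted p = 0.555), and its sign turned without control 2 (-0.11) and with normexp background correction (-0.13). Under bright spike-in scaling alone it passed the threshold (0.65, adjusted p = 0.0411).

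Amotl2, the angiomotin that links junctions to radial actin filaments and is a known YAP target, was read by A_51_P348804 at 1.66, 1.29 and 1.32 in Tead1 icKO hearts, against 1.86, 1.87 and 1.54 in control hearts. The Tead1 icKO values were mostly lower, but icKO 1 lay above control 3. The difference was -0.33 ± 0.15 (SE, 95% interval -0.70 to 0.03, limma adjusted p = 0.117). It passed the threshold without icKO 1 (-0.45, adjusted p = 0.0498), and the sign turned with bright spike-in scaling (0.11). Its window (chr9, plus strand) held CATTCC from base -65 on, in the stretch chr9:102717727-102717756:
Amotl2: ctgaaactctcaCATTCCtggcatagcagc
The 3 members with the hexamer thus comprised 1 that was called higher and 2 that were not called.

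**Figure D2:**
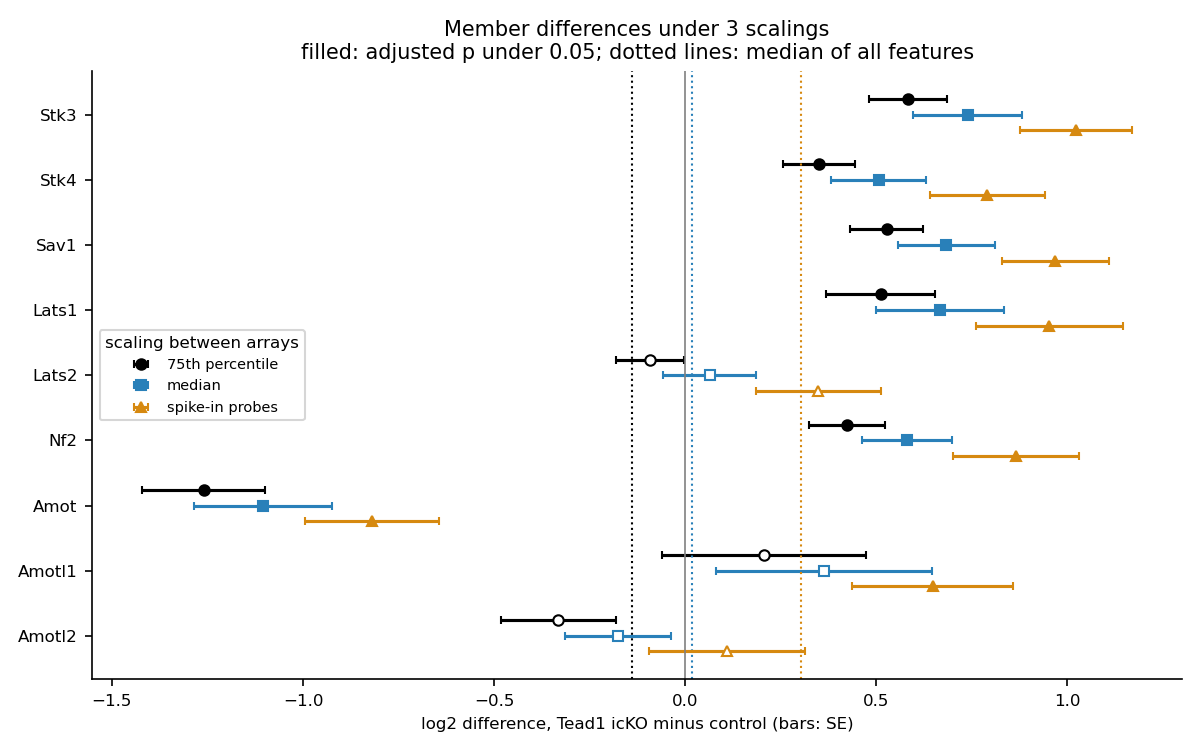
Log2 difference, Tead1 icKO minus control (x axis), with SE bars, for the 9 members tested, under scaling to the 75th percentile (black circles), the median (blue squares) and bright spike-in probes (orange triangles); filled marks passed an adjusted p of 0.05 and dotted lines are the median of all features. Stk3, Stk4, Sav1, Lats1 and Nf2 are filled to the right of 0 and Amot to the left of 0 under each of these scalings, while Lats2 and Amotl2 have both signs and Amotl1 is filled under bright spike-in scaling alone.

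Because the scalings move all genes of an array together, the differences are also given relative to the median feature. On this scale, that is after adding 0.14, Stk3 stood at 0.72, Sav1 at 0.67, Lats1 at 0.65, Nf2 at 0.56, Stk4 at 0.49 and Amotl1 at 0.35. Lats2 stood at 0.05, Amotl2 at -0.19 and Amot at -1.12. Neighbours in this order from Stk3 to Stk4 lay within 1 SE of each other.

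Differences between paralogs on the same array do not depend on its scaling, and 5 pairs were compared. An exact permutation test of 3 against 3 arrays cannot go below p = 0.1, so none could pass the threshold. Lats1 minus Lats2 was -2.22, -2.13 and -2.52 in Tead1 icKO hearts, against -2.92, -2.88 and -2.89 in control hearts. All Tead1 icKO values were higher, so that Lats1 moved up relative to Lats2 by 0.60 (exact permutation p = 0.1, adjusted p = 0.125). With normexp background correction, which does not cancel within an array, this shift was 0.31. Stk3 minus Stk4 was -1.12, -0.94 and -0.97 in Tead1 icKO hearts, against -1.25, -1.28 and -1.19 in control hearts, a shift of 0.23 (exact p = 0.1, adjusted p = 0.125) with groups that did not overlap.

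The angiomotin pairs with Amot had larger shifts. Amot minus Amotl2 was -1.30, -0.90 and -0.54 in Tead1 icKO hearts, against 0.14, -0.18 and 0.09 in control hearts, a shift of -0.93 (exact permutation p = 0.1, adjusted p = 0.125). Amot minus Amotl1 was 2.41, 2.47 and 2.76 in Tead1 icKO hearts, against 4.04, 4.55 and 3.44 in control hearts, a shift of -1.47 (exact permutation p = 0.1, adjusted p = 0.125). Neither pair overlapped between the groups, whereas Amotl1 minus Amotl2 overlapped and shifted by 0.54 (exact permutation p = 0.3, adjusted p = 0.3). With normexp background correction the shift of Amot minus Amotl1 was -0.93.

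**Figure D3:**
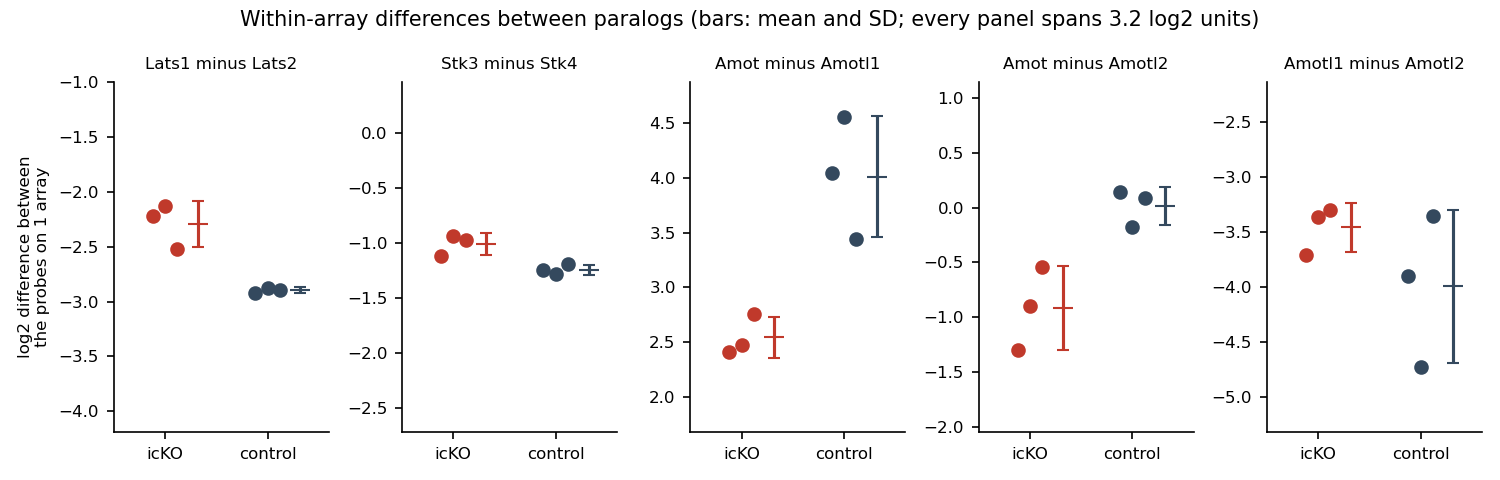
Difference between the log2 signals of 2 paralogs on the same array (y axis, log2 units), a point per array with mean and SD, for Tead1 icKO (red, left) and control arrays (dark blue, right). The groups are apart for Lats1 minus Lats2, Stk3 minus Stk4, Amot minus Amotl1 and Amot minus Amotl2, and overlap for Amotl1 minus Amotl2; only the shift between groups, not the height of a panel, can be read, since the probes differ.

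The genes around the members were read from 71 other pathway genes listed by role, of which 64 were tested. Of these, 15 were called higher (23.4%) and 10 lower (15.6%), beside 16.1% and 28.8% of all features, with a median of 0.02. Among the 12920 named genes tested, 2632 were higher and 3608 lower, with a median of -0.07. With bright spike-in scaling the counts were 31 higher and 0 lower, with median scaling 19 and 5, and with no filter on dim probes 10 and 4, so every lower call named here was lost with bright spike-in scaling.

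Partners of the core kinases were among the larger rises. Of 4 MOB adaptors and NDR kinases 2 were higher (50%) and 0 lower, beside 16.1% and 28.8% of all features. Mob1b, an adaptor that LATS kinases need for activity, read -0.46, -0.99 and -0.44 in Tead1 icKO hearts, against -1.93, -2.30 and -1.58 in control hearts, and rose by 1.31 ± 0.23 (SE, limma adjusted p = 0.00594). Stk38l, an NDR kinase related to LATS, read 1.73, 2.18 and 2.13 in Tead1 icKO hearts, against 0.92, 0.77 and 1.02 in control hearts, and rose by 1.11 ± 0.15 (SE, adjusted p = 0.0023). In both genes all Tead1 icKO values lay above all control values.

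Of 5 RASSF proteins tested, which bind the MST kinases, 3 were higher (60%) and 0 lower, beside 16.1% and 28.8% of all features. Rassf5 read 0.67, 0.96 and 0.52 in Tead1 icKO hearts, against -0.91, -1.10 and -1.62 in control hearts, and rose by 1.93 ± 0.21 (SE, limma adjusted p = 0.00116), the largest change among the 64 genes. Rassf2 rose by 1.03 ± 0.12 (SE, adjusted p = 0.00156). Rassf5 is also known from lymphocytes and other leukocytes, and the macrophage markers above rose in the same hearts; their part in this difference was not tested. Of 9 other kinases that can act on LATS 0 were higher and 1 was lower (11.1%), beside 16.1% and 28.8% of all features. The 1 was Map4k2 at -0.67 (limma adjusted p = 0.0198). Its call was lost without icKO 2, icKO 3, control 2 or control 3, and when dim probes were kept in (adjusted p = 0.0761).

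Upstream of LATS, 3 of 10 membrane and junction scaffolds were higher (30%) and 2 lower (20%), beside 16.1% and 28.8% of all features. Fat1, an atypical cadherin, read 2.86, 3.06 and 2.95 in Tead1 icKO hearts, against 1.64, 1.55 and 1.84 in control hearts, and rose by 1.28 ± 0.12 (SE, limma adjusted p = 0.000599). Ptpn14, a phosphatase that can retain YAP in the cytoplasm, rose by 0.91 ± 0.13 (SE, adjusted p = 0.00306). The junction protein genes Ctnna1 and Tjp1 fell by 0.56 (adjusted p = 0.00481) and by 0.26 (adjusted p = 0.0489). The Ctnna1 call was lost with normexp (-0.28, adjusted p = 0.083) and median scaling (-0.41, adjusted p = 0.0535). The Tjp1 call held under 4 of 19 alternatives: it was lost whichever array was left out (adjusted p = 0.0703 to 0.142), and the sign turned with bright spike-in scaling (0.18).

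Among 6 partners of the angiomotins 3 were lower (50%) and 1 was higher (16.7%), beside 28.8% and 16.1% of all features. Patj, a polarity scaffold bound by angiomotins, read 0.56, 0.63 and 0.76 in Tead1 icKO hearts, against 1.29, 1.50 and 1.40 in control hearts, and fell by 0.75 (SE 0.10, limma adjusted p = 0.00255). Arhgap17, the RICH1 protein that Amot binds at junctions, read 3.32, 3.17 and 3.15 in Tead1 icKO hearts, against 3.77, 3.76 and 3.70 in control hearts, and fell by 0.53 (SE 0.09, adjusted p = 0.00566). Both had separate groups, and both calls were lost with scaling to all or to bright spike-in probes. Magi1, a junction scaffold that binds angiomotins, rose by 0.69 ± 0.14 (SE, adjusted p = 0.0092). With the mean of a gene's probes the differences were smaller, and each call was kept. Magi1 then differed by 0.33 (limma adjusted p = 0.0251), Arhgap17 by -0.30 (adjusted p = 0.0416) and Patj by -0.54 (adjusted p = 0.0356).

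Of 13 genes for the turnover of angiomotins and LATS 2 were higher (15.4%) and 2 lower (15.4%), beside 16.1% and 28.8% of all features. Wwp2 and Itch, NEDD4-family ubiquitin ligases, rose by 0.78 (limma adjusted p = 0.00422) and 0.53 (adjusted p = 0.0152). Siah2, a ligase for LATS2, and the tankyrase gene Tnks2 fell by 0.69 (adjusted p = 0.00265) and by 0.64 (adjusted p = 0.0141). With the mean of its probes Tnks2 differed by -0.22 (adjusted p = 0.168), and its call was also lost with median scaling (adjusted p = 0.0898), without control 3 (adjusted p = 0.0501) and when dim probes were kept in (adjusted p = 0.0615). The 3 LIM proteins that inhibit LATS were not called. Of 12 genes of the STRIPAK complex, which dephosphorylates the MST kinases, Strn4 (0.41, adjusted p = 0.0128) and Pdcd10 (0.42, adjusted p = 0.0144) were higher, and Strip2 (-0.89, adjusted p = 0.0124) and Ppp2r1a (-0.35, adjusted p = 0.0443) lower. These were 16.7% higher and 16.7% lower, beside 16.1% and 28.8% of all features. The calls of Itch, Strn4, Pdcd10 and Strip2 were lost when dim probes were kept in (adjusted p = 0.0693, 0.0736, 0.077 and 0.051). That of Pdcd10 was also lost without control 3 (adjusted p = 0.05), and that of Itch when replicate number was blocked (adjusted p = 0.0524). The Ppp2r1a call held under 6 of 19 alternatives: it was lost whichever array was left out (adjusted p = 0.055 to 0.128), and the sign turned with bright spike-in scaling (0.09).

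Both coactivators at the end of the cascade were higher, beside 16.1% of all features. Yap1 read 5.19, 5.20 and 5.43 in Tead1 icKO hearts, against 4.47, 4.55 and 4.58 in control hearts, and rose by 0.74 ± 0.11 (SE, limma adjusted p = 0.00277). Wwtr1, which encodes TAZ, read 2.18, 2.23 and 2.24 in Tead1 icKO hearts, against 1.60, 1.36 and 1.44 in control hearts, and rose by 0.75 ± 0.10 (SE, adjusted p = 0.00211).

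**Figure D4:**
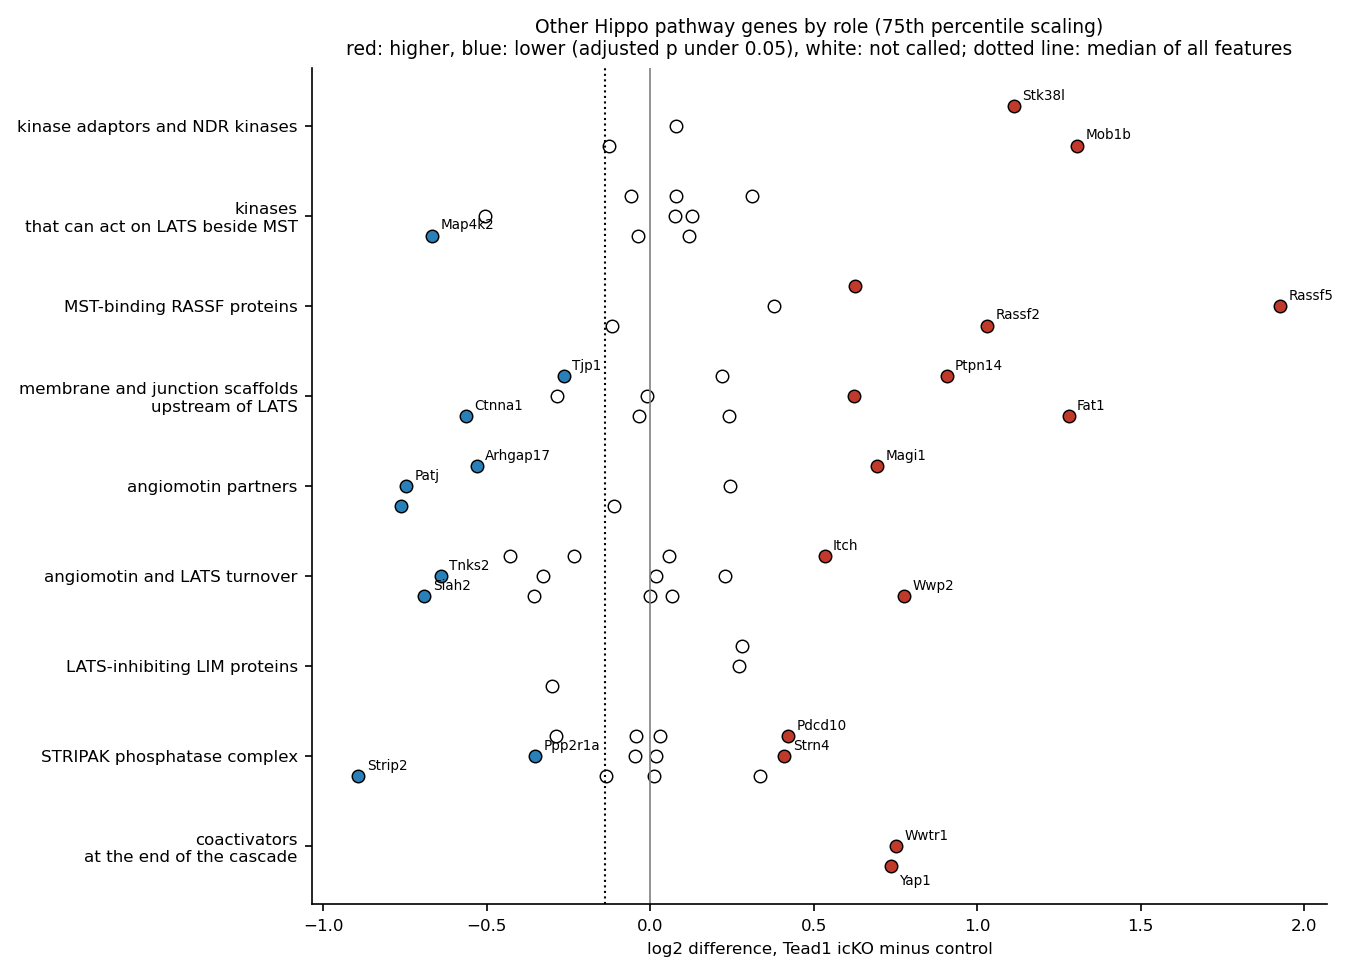
Log2 difference, Tead1 icKO minus control (x axis), for 64 other pathway genes by role (y axis), red where higher and blue where lower at an adjusted p of 0.05, white where not called; the dotted line is the median of all features (-0.14). Rassf5 (1.93), Mob1b (1.31) and Fat1 (1.28) lie farthest right and Strip2 (-0.89) farthest left.

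Position on the slide moved with the groups, since the control arrays lay in columns 1, 1 and 2 and the Tead1 icKO arrays in columns 2, 3 and 3. Within row 1, within row 2 and within column 2, Stk3 differed by 0.61, 0.61 and 0.51, Sav1 by 0.46, 0.64 and 0.56, and Lats1 by 0.76, 0.33 and 0.64. Stk4 differed by 0.32, 0.37 and 0.44 and Nf2 by 0.29, 0.51 and 0.37. In these 5 members all Tead1 icKO values lay above all control values, so the direction within a row or column was fixed. Row 1 held 1 Tead1 icKO array, row 2 held 1 control array, and column 2 held 1 array of each group. Within each row the Tead1 icKO arrays lay in higher columns than the control arrays, so group and column cannot be told apart there. None of these differences was tested.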

How the data were processed

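Spot intensity in linear units was deposited for 6 one-colour arrays of design 028005, made with Agilent Feature Extraction 11.0.1.1 and background-subtracted within each array, per the file headers. Version 9.1 is named in the submitters' processing notes. The deposited value table of the authors, also intensity, served as an alternative. Processed signals of single spots were log2-transformed and centred on the 75th percentile of the non-control spots of each array. They were then averaged over the spots of a probe without outlier flags. Probes were named by RefSeq accession in a GRCm38.p6 gene table, from which no coordinates were taken. Probes had to stand well above background throughout 1 group or both and have an unflagged spot on every array (26012 of 55681 did). A gene was its brightest kept probe. Groups were compared with limma 3.58.1 in R 4.3.3 (lmFit, then eBayes, with the group term alone, on all 6 arrays), with Benjamini-Hochberg adjustment over 22168 features and a threshold of 0.05. Each p named as over probes comes from the same fit over 26012 probes, 44.4% of them called. The steps were tested on simulated data. The number of arrays limits the precision, and the labels call the replicates biological.

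Members and lists were chosen with earlier results of these data known. The named genes are the members, Tead1, Yap1, Wwtr1 and, from each list, up to 2 called higher and 2 called lower with the smallest p. Alternatives covered background correction, scaling, filters, probe choice, variance model, blocks and leaving out each array. The replicate numbers were not taken as pairs, since the labels state no pairing. Deviations of same-numbered arrays from their group means correlated at -0.05, -0.13 and 0.00, which cannot settle whether the animals were paired. The listed Pals1 is Mpp5 in the name table. Of the marker lists not described in the report, the atrial list summed to 8.08 to 10.3 in Tead1 icKO hearts, against 2.12 to 2.57 in control hearts (1 of 1 tested higher). The smooth muscle and pericyte list summed to 59.3 to 67.7 in Tead1 icKO and 46.8 to 74.3 in control hearts (2 higher and 1 lower of 6), the epicardial list to 4.19 to 8.04 in Tead1 icKO and 2.80 to 5.50 in control hearts (1 of 4 higher) and the erythrocyte list to 622 to 1322 in Tead1 icKO and 351 to 630 in control hearts (1 of 2 higher).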

Additional observations from a re-analysis of the deposited data

How the results depend on the processing

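Stk3, Sav1 and Amot kept their direction and call under all 19 alternatives. The number of members called higher was 2 with no filter on dim probes and 2 to 4 when 1 array was left out, and the number called lower was 1 to 2. The share of all features called also fell, from 44.9% to 12.6% with no filter. With 1 array left out it was 33.9% to 40.1%. Of the other pathway genes, 28 were higher and 0 lower with scaling to all spike-in probes, 31 and 0 with bright spike-in probes, 5 lower with median scaling, 4 lower with no filter, and 13 to 16 higher and 6 to 9 lower with 1 array left out. Scaling to all spike-in probes called 40.5% of all features, and 74% of these calls were higher. The matching shares were 39.9% and 81% with bright spike-in probes, and 36.3% and 54.6% with median scaling. With no filter on dim probes, where more features shared the adjustment, Lats1 (0.51), Stk4 (0.35), Nf2 (0.42) and Tead1 (-0.40) lost their calls. With the replicate block, Stk4 (0.35, adjusted p = 0.0736) and Tead1 (-0.40, adjusted p = 0.0506) did, and with slide row as a block Stk4 (0.35) and Tead1 (-0.38). The replicate block left 4 members called higher and 1 lower, and 35.6% of all features called. The mean of a gene's probes gave 0.22 for Stk4, 0.040 for Lats2 and 0.36 for Stk3 minus Stk4. Median scaling gave 0.063 for Lats2 and -0.24 for Tead1. Scaling to all spike-in probes gave 0.26 for Lats2, 0.020 for Amotl2, -0.046 for Tead1, 0.088 for Tjp1 and 0.00047 for Ppp2r1a, and scaling to bright ones 0.35 for Lats2, 0.65 for Amotl1, 0.11 for Amotl2, 0.043 for Tead1, 0.18 for Tjp1 and 0.090 for Ppp2r1a. Normexp gave -0.13 for Amotl1, 0.31 for Lats1 minus Lats2 and -0.93 for Amot minus Amotl1. Bright spike-in scaling and normexp on median signals were chosen after seeing the data; normexp on mean signals, planned first, was not run, since the scanner tables read here carry median and not mean spot signals. With 1 array left out, Lats1 ran from 0.40 to 0.65, Stk4 from 0.30 to 0.40, Nf2 from 0.37 to 0.48, Amotl1 from -0.11 to 0.42, Amotl2 from -0.45 to -0.26 and Tead1 from -0.47 to -0.35. Causes of these shifts were not tested. The Wwc1 signal, near background on most arrays, limits what can be read of that gene.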
